A study of Homo sapiens and Mus musculus with 12 samples.

Results

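The comparison concerned genes whose input mRNA level differed between the states labelled S and P in one melanoma line and not in the other, or differed in opposite directions. A375 is a melanoma line of human origin, and Yumm1.7 is a line from mouse melanoma. For each line the log2 of (S input TPM + 1)/(P input TPM + 1) was taken, where TPM is the read density of a gene scaled to a library total of 1000000, and the value of the line's median gene was subtracted. The value then says how far a gene stood above or below the middle gene of its line, and the added 1 understates the difference of genes with low TPM. Genes were matched by symbol in capital letters and needed a mean of at least 1 TPM in each table, which left 8522 of the 9896 genes listed in both. Of these, 3645 genes (42.8%) were 2-fold or more from the median gene in opposite directions or in 1 line only, 166 of them in opposite directions and 3479 in 1 line only. These input values chose the genes, so the values that define a class are given as a description.

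The series held 12 libraries of poly(A)-selected RNA from polysome profiling, which separates mRNAs in a sucrose gradient by how many ribosomes they carry. Each line in each state (A375 P, A375 S, Yumm1.7 P and Yumm1.7 S) gave 1 library of unfractionated RNA (input), 1 monosome library, taken at the single-ribosome peak and in the fractions above it, and 1 polysome library from the bottom of the gradient. Per the series description, parental cells and drug-tolerant persister cells of each line were profiled, but the labels do not tie the letters to them, name the drug or give its dose or time. All differences are therefore S relative to P.

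Melanoma persister cells are commonly studied after inhibition of the BRAF-MEK-ERK pathway, to which BRAF-mutant cells are addicted. A375 carries an activating BRAF mutation, and Yumm1.7 carries the same kind of mutation. Cells that survive such treatment typically leave the cell cycle and change their secreted, adhesion and metabolic genes, and the program adopted can vary with the genetic background and with the differentiation state of the line. A difference between these lines is at the same time a difference between species, between 2 gene annotations and between 2 tables deposited apart.

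The labelled cell type was checked on marker genes. In A375 the summed input TPM of 6 melanocyte lineage markers was 586 in P and 864 in S, with SOX10, DCT and S100B abundant in both states. Of these, MITF (66.6 TPM in P and 43.0 in S) and S100B (332 and 314) were lower in S, and the others were higher. In Yumm1.7 the 4 such markers analysed summed to 5.09 TPM in P and 0.571 in S, with Mitf at 4.76 and 0.571, and S100b listed at 0 in both, so the defining markers of the lineage were nearly absent from this line. Smooth muscle markers, summed over 7 genes, went from 6.64 to 884 TPM in Yumm1.7 and, over 4 genes, from 3.99 to 5.08 in A375. Fibroblast markers went from 13.8 to 115 TPM in Yumm1.7 and from 5.37 to 8.72 in A375. In Yumm1.7 most of the sum was Col1a2 (12.4 TPM in P and 74.1 in S) and Dpt (0.926 and 35.2), and Pdgfra was lower in S. In A375 FAP was higher in S (0.161 and 7.63), whereas LUM (3.83 and 0.949) and PDGFRA (1.38 and 0.146) were lower. Endothelial and leukocyte markers stayed under 2 TPM in sum in all input libraries.

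Each group had 1 library, so no test was made, no difference has a replicate check, and each value describes these libraries only. TPM keeps no depth, and in bulk RNA fewer cells of a type and less RNA per cell cannot be told apart. The median gene stood at -0.20 (log2 S over P, as deposited) in A375 input and at -0.94 in Yumm1.7 input, so a Yumm1.7 gene with an unchanged TPM counts as about 0.94 above its median gene. The Yumm1.7 S input library listed 1581 genes at 0, among them 301 of the matched genes (3.53%), against 4 to 92 matched genes in the 11 other libraries. A 0 there may be a failed estimate, which was not tested. NUP43, a nuclear pore subunit, went from 44.4 TPM in Yumm1.7 P input to a listed 0 in S input. Relative to the median gene, its S against P value in Yumm1.7 was -2.97 in monosome and -1.62 in polysome libraries. Genes listed at 0 in an input library are named as such and given no fold.

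Among the 8522 matched genes, 94 (1.1%) were higher in A375 S and lower in Yumm1.7 S, and 72 (0.845%) were lower in A375 S and higher in Yumm1.7 S. In A375 only, 515 genes (6.04%) were higher and 544 (6.38%) lower. In Yumm1.7 only, 1233 genes (14.5%) were higher and 1187 (13.9%) lower, in all 2420 Yumm1.7-only genes against 1059 A375-only genes. A further 559 genes were higher in both lines, 672 were lower in both and 3646 were within 2-fold in both. The edge of each class was narrow: AGA, just inside the first class, stood at 1.01 in A375 and -1.16 in Yumm1.7, whereas SLC10A3, just outside, stood at 1.17 and -0.98. NBL1, just inside the second, stood at -1.01 in A375 and 4.72 in Yumm1.7, and ABTB2, just outside, at -1.65 and 0.999. In the 4 classes of 1 line the edge was as thin, with ACTG1 (1.001 in A375) just inside and UBE2E3 (0.9996) just outside the genes higher in A375 only. A gene called in 1 line only need not differ much between the lines, and 2442 of the 3479 such genes were also at least 2-fold apart between them.

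**Figure D1:**
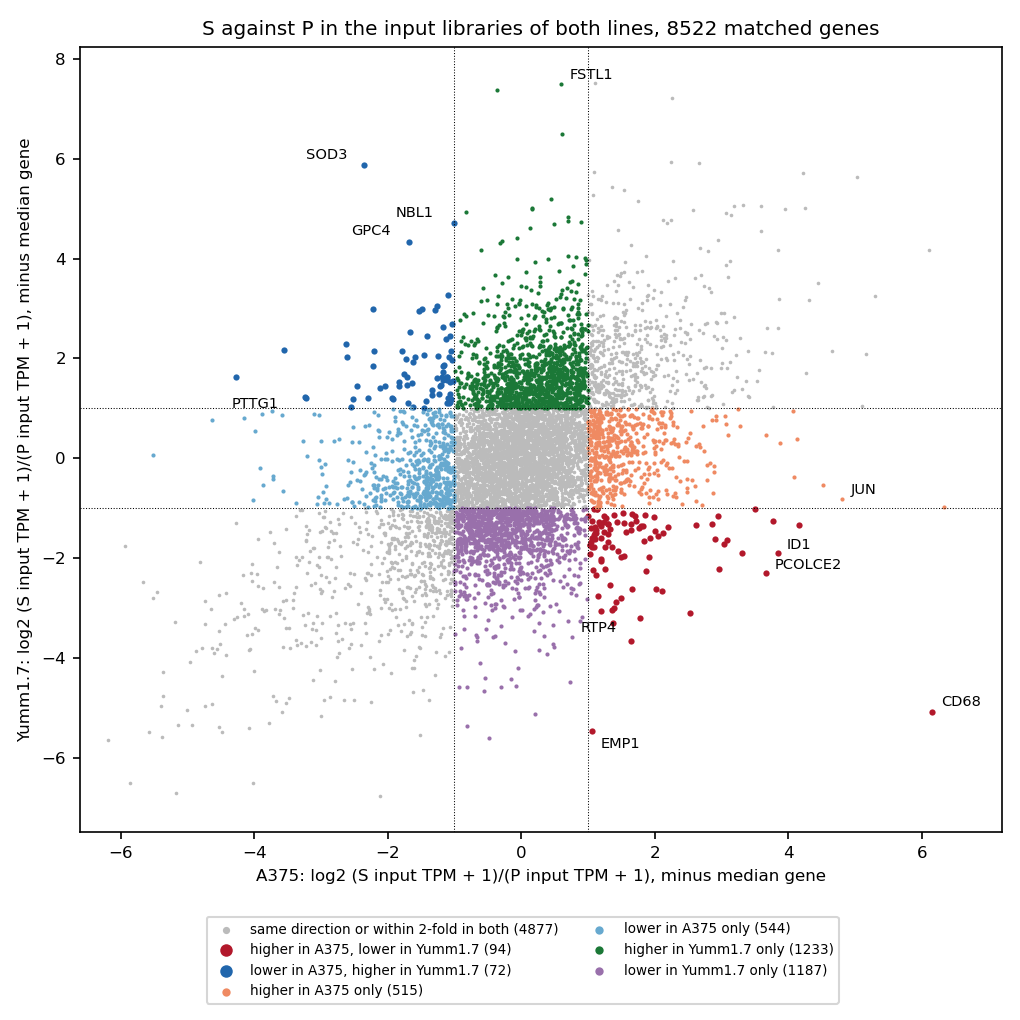
Each point is 1 of the 8522 matched genes, with the log2 ratio of S to P input TPM + 1, minus the line's median gene, for A375 on the horizontal axis and for Yumm1.7 on the vertical axis. Dotted lines mark 2-fold, and colours mark the 6 classes, with CD68 and EMP1 far out at the lower right and SOD3, GPC4 and NBL1 at the upper left.

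The centring on the median gene decides many of these calls, because the Yumm1.7 median gene lay so low. On the deposited scale, without centring, 65 of the 94 and 27 of the 72 opposite genes kept their class. The genes higher in Yumm1.7 only were the most affected: 330 of 1233 kept their class, and 869 were within 2-fold in both lines as deposited. Of the 544 genes lower in A375 only, 178 kept their class and 366 were lower in both lines as deposited. By contrast, 1051 of the 1187 genes lower in Yumm1.7 only kept theirs. Among genes higher in A375 only, 225 of 515 kept the class and 130 were in opposite directions as deposited. Without centring, 387 genes would be higher and 2674 lower in Yumm1.7 only, and the opposite classes would hold 195 and 36 genes.

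The monosome and polysome libraries of the same states, which the class thresholds did not use, gave another reading. They did enter the minimum mean TPM, which was taken over all libraries of a line. They came from the same 4 states and may share the cultures of the input libraries, which the labels do not say. In monosome libraries 1.61% and 1.47% of all matched genes fell in the 2 opposite classes, and in polysome libraries 1.35% and 1.02%. Of the 94 genes higher in A375 and lower in Yumm1.7, 35 (37.2%) were in that class again in monosome libraries and 35 in polysome libraries. Of the 72 in the reverse direction, 23 (31.9%) and 38 (52.8%) were. In all 3 fractions, 19 genes (0.223% of those matched) and 17 genes (0.199%) were opposite. Opposite genes are at least 4-fold apart in input by the way they were chosen. In all 3 fractions, 72 of 94 (76.6%) and 55 of 72 (76.4%) were at least 2-fold apart with the order of the lines unchanged, from which nothing is read. Of all matched genes, 20.5%, 25% and 21% were 2-fold apart with A375 higher in input, monosome and polysome libraries, and 21.3%, 26.1% and 20.6% with Yumm1.7 higher.

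The genes called in 1 line recurred to different extents. Of the 1233 higher in Yumm1.7 only, 67.7% were in the class in monosome libraries (where 19.6% of matched genes were) and 53.5% in polysome libraries (12.7%). Of the 1187 lower in Yumm1.7 only, 55.2% and 55.6% were, against 17.1% and 14.9% of matched genes. The A375-only genes recurred less in monosome libraries, at 35.7% of the higher ones and 29.4% of the lower ones, against 5.29% and 4.94% of matched genes. In polysome libraries they did so at 47.6% and 46.7%, against 6.48% and 6.63%. In all 3 fractions, 512 genes were higher (6.01% of matched) and 413 lower (4.85%) in Yumm1.7 only, and 100 were higher (1.17%) and 95 lower (1.11%) in A375 only.

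**Figure D2:**
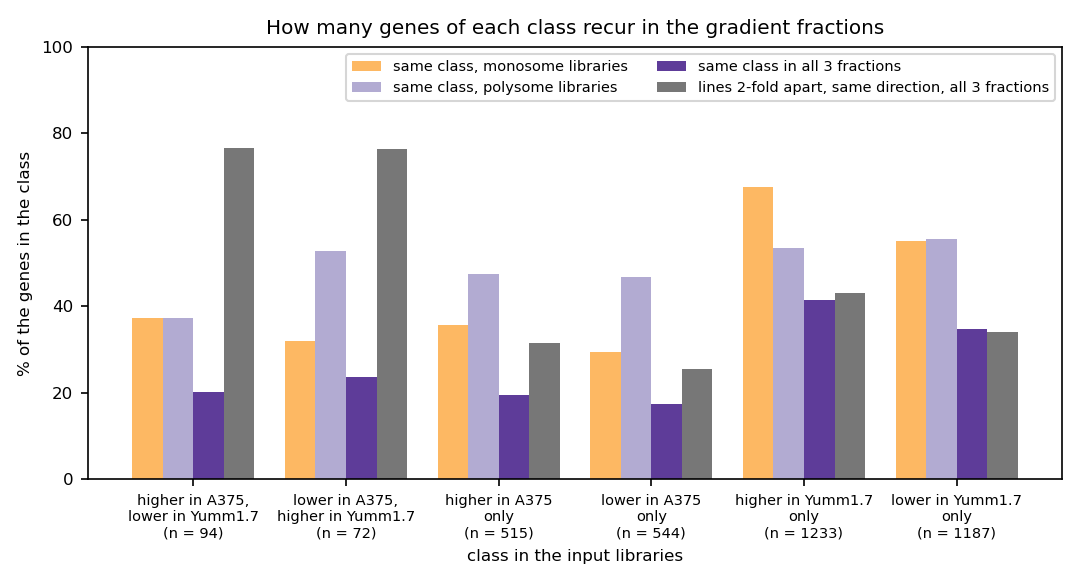
For each of the 6 classes, defined in the input libraries, the bars give the percentage of its genes in the same class in the monosome libraries, in the polysome libraries and in all 3 fractions, and the percentage with the lines at least 2-fold apart in the same direction in all 3. The last bar stands at 76.6% and 76.4% for the opposite genes, which were chosen at least 4-fold apart in input, and class recurrence is highest for the genes higher in Yumm1.7 only in monosome libraries, at 67.7%.

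Properties that the class thresholds did not use are given next, beside those of genes that differed in both lines. The A375 polysome-to-monosome ratio in state P, as log2 relative to the median gene, had a median of 0.70 over the genes lower in A375 only and -0.23 over those higher in A375 only, beside 0.24 over all matched genes. Genes lower in both lines (0.84) and higher in both (-0.25) stood in the same order. In S the medians were 0.19 and 0.01, beside 0.19 over all. The total exon length of the human gene had a median of 2872 bases in the class higher in A375 and lower in Yumm1.7, and 4100 in the reverse class, beside 3746 over all matched genes. Genes higher in both lines had a shorter median still, at 2812 bases. The 4 classes of 1 line had medians from 3444 to 3800 bases. Protein-coding genes made up 93.1% to 99.4% of each class, beside 98.8% of all.

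Genes higher in A375 S and lower in Yumm1.7 S included CD68, a lysosomal membrane glycoprotein used as a macrophage marker. CD68 was at 5.76 TPM in P and 419.9 in S in A375 input, whereas in Yumm1.7 input it went from 63.8 TPM to a listed 0. In the monosome libraries it was at 0.894 and 148 TPM in A375 P and S, and at 32.4 and 7.10 in Yumm1.7 P and S. In the polysome libraries the values were 21.6 and 649 TPM in A375, and 75.9 and 4.95 in Yumm1.7. The opposite direction held in each fraction. LYZ, the leukocyte marker analysed in A375, went from 1.96 to 0.616 TPM in input, and none of that list was analysed in Yumm1.7. The human CD68 gene (chr17:7579638-7582111, GRCh38.p14) shares exon sequence with 2 other annotated genes, so part of its reads may belong to them.

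EMP1, an epithelial membrane protein, was at 25.1 TPM in P and 46.4 in S in A375, and 135 in P and 0.616 in S in Yumm1.7. Its relative value was 1.06 in A375 and -5.46 in Yumm1.7, so the A375 value was barely past 2-fold, and it was under 2-fold in monosome (0.87 in A375 and -4.96 in Yumm1.7) and polysome libraries (0.53 in A375 and -4.53 in Yumm1.7). PCOLCE2, which enhances procollagen processing, was at 20.7 TPM in P and 239 in S in A375, and 10.1 in P and 0.177 in S in Yumm1.7. Its differences between the lines were 5.98 in input, 6.21 in monosome and 6.45 in polysome libraries, and the 3 fractions were nearly alike. PCOLCE, its close relative, had the other pattern and was among the genes higher in Yumm1.7 only, at 78.9 TPM in P and 55.9 in S in A375, and 484 in P and 2873 in S in Yumm1.7. PCOLCE differences were -3.79 in input, -5.36 in monosome and -4.48 in polysome libraries, so the 2 procollagen enhancers differed in opposite directions between the lines in every fraction.

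ID1, an inhibitor of basic helix-loop-helix factors and a target of BMP signals, was at 51.4 TPM in P and 657 in S in A375, and 13.7 in P and 1.06 in S in Yumm1.7. In monosome libraries its Yumm1.7 value was close to the median gene, at 0.06, and in polysome libraries it was -0.64, while A375 stood at 2.42 and 4.26. ID2, a related inhibitor, was called in A375 only, at 5.26 TPM in P and 124 in S in A375, and 18.5 in P and 6.01 in S in Yumm1.7. Both genes were therefore far higher in A375 S, by 3.85 and 4.52 relative to the median gene.

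PRUNE2 was at 0.017 TPM in P and 14.8 in S in A375, and 9.21 in P and 1.11 in S in Yumm1.7, and its A375 P level is too low for a fold to be read closely. CBFB, the partner subunit of RUNX transcription factors, was at 102 TPM in P and 278 in S in A375, and 35.4 in P and 0.507 in S in Yumm1.7, with differences of 5.30 in input, 5.13 in monosome and 3.66 in polysome libraries. KRCC1 was at 8.02 TPM in P and 60.3 in S in A375, and 50.3 in P and 4.78 in S in Yumm1.7 and kept opposite directions past 2-fold in all 3 fractions (3.26 in A375 and -2.62 in Yumm1.7 in monosomes, 3.34 in A375 and -1.26 in Yumm1.7 in polysomes). OAF, a secreted protein, was at 84.5 TPM in P and 612 in S in A375, and 73.4 in P and 10.7 in S in Yumm1.7. VGLL4, a cofactor that competes with YAP for TEAD factors, was at 15.5 TPM in P and 121 in S in A375 and went from 4.97 TPM to a listed 0 in Yumm1.7. SCHIP1 was at 35.0 TPM in P and 80.7 in S in A375 and went from 17.8 TPM to a listed 0 in Yumm1.7 input, with 0 in both other Yumm1.7 S libraries too.

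The 19 genes opposite in all 3 fractions included the following. PAM, which amidates secreted peptides, was at 64.7 TPM in P and 231 in S in A375, and 45.0 in P and 2.89 in S in Yumm1.7. PLA2G4A, the cytosolic phospholipase A2 that frees arachidonic acid, was at 9.40 TPM in P and 22.9 in S in A375, and 18.4 in P and 0.268 in S in Yumm1.7, and SERINC1 was at 66.1 TPM in P and 208 in S in A375, and 147 in P and 23.5 in S in Yumm1.7. PPFIBP1, a liprin of cell adhesions, had differences of 4.30 in input, 5.30 in monosome and 5.39 in polysome libraries. The remaining ones were CKAP4, CLCF1, COMMD10, FHL2, NBR1, OTUD1, PCGF5, PODXL, POLK, RTP4 and TINF2 beside CD68, KRCC1, PCOLCE2 and VGLL4. These further names were chosen after their values were seen, because they were opposite in every fraction.

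In the reverse direction, lower in A375 S and higher in Yumm1.7 S, the genes included SOD3, the secreted superoxide dismutase that removes superoxide from the matrix. SOD3 (chr4:24795573-24800842, GRCh38.p14) was at 102 TPM in P and 16.6 in S in A375, and 0.918 in P and 57.9 in S in Yumm1.7. In monosome libraries it was at 44.1 and 11.0 TPM in A375 P and S, and at 0.439 and 60.9 in Yumm1.7 P and S. In polysome libraries it was at 216 and 23.1 TPM, and at 0.975 and 43.3. The lines thus exchanged places: SOD3 was high in A375 P and in Yumm1.7 S and low in the other pair, in every fraction.

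GPC4, a cell-surface heparan sulfate proteoglycan that binds growth factors, was at 13.8 TPM in P and 3.03 in S in A375, and 8.35 in P and 97.96 in S in Yumm1.7. The differences were -6.01 in input, -5.85 in monosome and -6.48 in polysome libraries, with both lines past 2-fold each time. NBL1, a secreted BMP antagonist, was at 159 TPM in P and 68.4 in S in A375, and 4.88 in P and 79.9 in S in Yumm1.7. NBL1 differences were -5.73 in input, -6.88 in monosome and -6.16 in polysome libraries, though its A375 value of -1.01 in input was barely past 2-fold and the human gene overlaps a read-through transcript. PTGFRN, a regulator of the prostaglandin F receptor, was at 22.3 TPM in P and 8.46 in S in A375, and 1.06 in P and 9.42 in S in Yumm1.7, and ST3GAL5, the enzyme that makes ganglioside GM3, was at 48.3 TPM in P and 16.9 in S in A375, and 13.0 in P and 59.3 in S in Yumm1.7. KCTD15, which acts in neural crest formation, was at 29.3 TPM in P and 9.78 in S in A375, and 14.2 in P and 61.6 in S in Yumm1.7, with differences of -4.27 in input, -4.49 in monosome and -3.80 in polysome libraries. All 3 were opposite past 2-fold in every fraction.

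Other leading genes of this direction recurred less fully. ITGB5, the beta chain of the vitronectin receptor integrin, was at 137 TPM in P and 42.0 in S in A375, and 10.8 in P and 48.1 in S in Yumm1.7, with values of -0.81 in A375 and 3.43 in Yumm1.7 in monosomes. HPS4, needed for lysosome-related organelles such as melanosomes, was at 26.2 TPM in P and 7.24 in S in A375, and 4.45 in P and 21.04 in S in Yumm1.7, and its A375 monosome value was -0.36. PSEN2, a catalytic subunit of gamma-secretase, was at 11.6 TPM in P and 0.794 in S in A375, and 12.1 in P and 26.9 in S in Yumm1.7, but in polysome libraries both lines were within 2-fold, at 0.40 in A375 and 0.84 in Yumm1.7. KLHDC4 was at 34.7 TPM in P and 2.30 in S in A375, and 62.4 in P and 76.6 in S in Yumm1.7, and in monosome libraries it was higher in both lines, at 1.39 in A375 and 2.11 in Yumm1.7. The class was therefore kept in every fraction by SOD3, GPC4, NBL1, PTGFRN, ST3GAL5 and KCTD15 and not by these 4. In A375, NBL1 (-1.01 in input and -1.05 in polysomes) and PTGFRN (-1.10 in input) were only just past 2-fold.

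**Figure D3:**
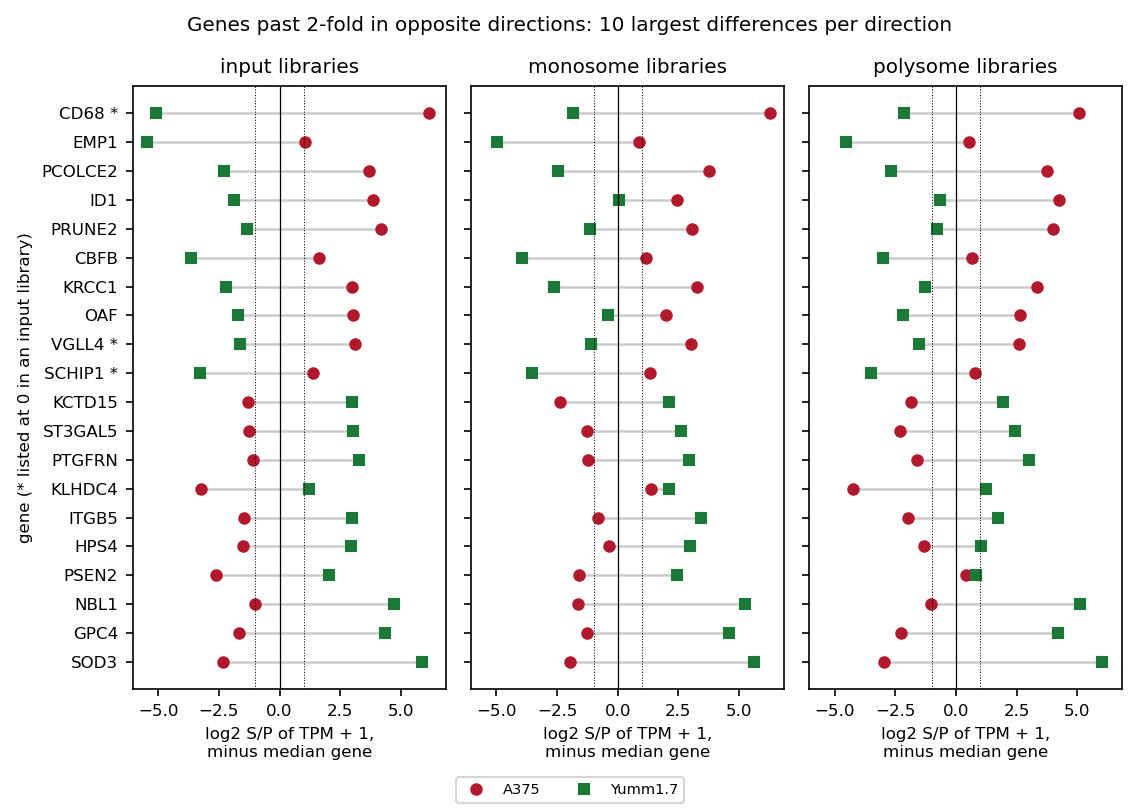
The 10 genes with the largest difference in each direction are plotted with the log2 ratio of S to P for A375 (red circles) and Yumm1.7 (green squares), minus the median gene, in input, monosome and polysome libraries. The order of the lines is the same in all 3 panels for each of the 20 genes, with the smallest gaps for KLHDC4 in monosome libraries and PSEN2 in polysome libraries.

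The next genes, of at least 10 TPM in both tables, were called in 1 line and lay within 0.50 of the median gene in the other. Among those higher in A375 only was ALCAM. ALCAM, an adhesion molecule of the immunoglobulin family, was at 4.10 TPM in P and 64.3 in S in A375, and 13.4 in P and 8.31 in S in Yumm1.7. TMEM47, a junction protein, was at 4.70 TPM in P and 62.0 in S in A375, and 20.4 in P and 14.5 in S in Yumm1.7, and ARSA, a lysosomal sulfatase, was at 6.86 TPM in P and 37.5 in S in A375, and 16.0 in P and 7.58 in S in Yumm1.7. These 3 genes were in the class in every fraction. PLPP1, a lipid phosphatase, was at 18.2 TPM in P and 122 in S in A375, and 21.8 in P and 9.77 in S in Yumm1.7, and its Yumm1.7 monosome value was 0.9996. B2M, the light chain of MHC class I, was at 1192 TPM in P and 5392 in S in A375, and 4547 in P and 1723 in S in Yumm1.7, with differences of 2.84 in input, 1.27 in monosome and 2.62 in polysome libraries. PKIG and POLD4 were also among the largest, with differences of 2.49 and 2.46 in input. JUN, a member of the AP-1 list described below, was further apart, at 5.62.

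Genes lower in A375 only and close to the median gene in Yumm1.7 included SDC1, a heparan sulfate proteoglycan, at 17.6 TPM in P and 1.32 in S in A375, and 28.0 in P and 18.2 in S in Yumm1.7. SDC1 was lower in A375 by similar amounts in the other fractions (-2.35 in monosomes and -3.22 in polysomes). SH3BP5, which binds the kinase BTK, was at 52.4 TPM in P and 4.72 in S in A375, and 10.2 in P and 4.76 in S in Yumm1.7, and SLC29A1, a nucleoside transporter, was at 52.1 TPM in P and 6.65 in S in A375, and 72.2 in P and 36.2 in S in Yumm1.7. These 3 genes kept their class in each fraction. IFI30, a lysosomal thiol reductase that acts in antigen processing, was at 17.2 TPM in P and 0.206 in S in A375, and 252 in P and 98.5 in S in Yumm1.7, whereas in monosome libraries its A375 value was -0.06. SNX14 was at 11.9 TPM in P and 1.08 in S in A375, and 16.0 in P and 10.1 in S in Yumm1.7, but it stood at 0.44 and 0.54 in A375 monosome and polysome libraries. SNHG3, a host gene of small nucleolar RNAs, was at 197 TPM in P and 21.6 in S in A375, and 51.4 in P and 24.3 in S in Yumm1.7, and 5 of the 14 such host genes matched were lower in A375 only.

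Among genes of at least 10 TPM in both tables that were higher in Yumm1.7 only and close to the median gene in A375, the largest difference was that of DHRS3, a retinaldehyde reductase, at 74.4 TPM in P and 72.2 in S in A375, and 0.37 in P and 22.1 in S in Yumm1.7. TMEM53 was at 14.6 TPM in P and 14.2 in S in A375, and 1.02 in P and 32.5 in S in Yumm1.7. THBS1, a secreted matrix glycoprotein that activates latent TGF-beta, was at 271 TPM in P and 225 in S in A375, and 0.737 in P and 18.5 in S in Yumm1.7. The levels of DHRS3, TMEM53 and THBS1 in Yumm1.7 P were about 1 TPM or less, so their S levels stand against near absence in P, and all were in the class in every fraction. TRNP1, PLTP (a phospholipid transfer protein), ATOX1 (a copper chaperone) and COQ10A stood at -4.47, -3.66, -3.37 and -3.17 for A375 minus Yumm1.7. In each of these 4 genes the A375 value lay within 0.50 of the median gene.

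Among genes of at least 10 TPM in both tables that were lower in Yumm1.7 only and within 0.50 of the median gene in A375, 4 of the 8 largest were listed at 0 in the Yumm1.7 S input. These were SCAMP4, UCHL3, NUP43 and RAVER1, which went from 65.9, 92.1, 44.4 and 45.2 TPM in Yumm1.7 P to a listed 0 in S. UCHL3, a deubiquitinase, was still lower in the other fractions, at -2.03 and -2.13. The reading of RAVER1 did not hold, since its A375 minus Yumm1.7 difference turned to -1.13 in monosome libraries, where Yumm1.7 listed it at 0 in both states. AARSD1, an editing factor of alanyl-tRNA, was at 79.5 TPM in P and 61.9 in S in A375, and 55.2 in P and 0.362 in S in Yumm1.7, but in the Yumm1.7 polysome libraries it was higher in S, at 74.6 TPM in P and 111 in S. ANXA5, a phosphatidylserine-binding annexin, was at 1059 TPM in P and 1291 in S in A375, and 206 in P and 6.92 in S in Yumm1.7, and its differences were 4.26 in input, 2.57 in monosome and 3.47 in polysome libraries. EPS8, an actin-capping signalling adaptor, was at 54.7 TPM in P and 62.5 in S in A375, and 41.8 in P and 0.468 in S in Yumm1.7, and TMCO1, an ER calcium channel, was at 187 TPM in P and 226 in S in A375, and 62.4 in P and 1.502 in S in Yumm1.7. ANXA5 and TMCO1 kept the class in every fraction. In all, 77 of the 1187 genes lower in Yumm1.7 only were listed at 0 in the Yumm1.7 S input.

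Interferon-stimulated genes are switched on by interferons through STAT and IRF factors that bind the interferon-stimulated response element. Of the 25 such genes matched, 3 were higher in A375 and lower in Yumm1.7, 4 were higher in A375 only and 9 were lower in Yumm1.7 only. None was in the 3 reverse classes, 2 were lower in both lines and 7 were within 2-fold in both. The 16 line-specific genes were 64.0% of the list, beside 42.8% of all matched genes. The A375 minus Yumm1.7 difference was positive for 23 of 25 genes in input, 20 in monosome and 24 in polysome libraries, and its median was 1.52, 1.48 and 1.58 in the 3 fractions. Over all matched genes the median was -0.02, -0.02 and 0.01, with 4204 of 8522 positive in input. As deposited, the list's median was 0.63 in A375 and -2.16 in Yumm1.7, so the list's opposite directions were present without the centring. IFITM3 and ISG15 were opposite past 2-fold on that scale, and RTP4 was lower in Yumm1.7 only.

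IFITM3, a membrane protein that blocks entry of enveloped viruses, was at 239.6 TPM in P and 1573 in S in A375, and 2878 in P and 488 in S in Yumm1.7. It stood at 2.02 in A375 and -0.997 in Yumm1.7 in monosomes and at 2.85 in A375 and -0.16 in Yumm1.7 in polysomes, so its Yumm1.7 side faded in the polysome libraries. Near-identical IFITM genes make its reads hard to assign. ISG15, a ubiquitin-like modifier, was at 19.1 TPM in P and 107 in S in A375, and 898 in P and 186 in S in Yumm1.7, and in Yumm1.7 it was close to the median gene in monosomes (0.02) and polysomes (0.22). RTP4, a Golgi chaperone of receptors, was at 3.17 TPM in P and 7.32 in S in A375, and 143 in P and 7.97 in S in Yumm1.7, with opposite values past 2-fold in every fraction and differences of 4.27 in input, 4.75 in monosome and 5.03 in polysome libraries. IRF9, the DNA-binding subunit of the interferon complex ISGF3, was called in A375 only, at 0.732 TPM in P and 10.1 in S in A375, and 16.9 in P and 4.78 in S in Yumm1.7. It was higher in A375 polysomes (0.651 TPM in P and 27.6 in S) and not in monosomes (1.84 and 0.495). IFITM3, ISG15, RTP4 and IRF9 had more TPM in Yumm1.7 P than in A375 P, across tables that were scaled apart.

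The promoters of the 3 opposite interferon genes are shown because each holds the letters of the response element core (GAAA, any 2 bases, GAAA) near the start of the gene. The stretches are human, read 5′ to 3′ on the gene's strand from RefSeq (GRCh38.p14), and capitals mark the motif. RTP4 is at chr3:187368303-187368384 on the plus strand, ISG15 at chr1:1013344-1013439 on the plus strand and IFITM3 at chr11:320861-320952 on the minus strand, and each stretch lies before the annotated start of its gene.
RTP4: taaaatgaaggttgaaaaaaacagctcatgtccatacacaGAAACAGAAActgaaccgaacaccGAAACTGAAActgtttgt
ISG15: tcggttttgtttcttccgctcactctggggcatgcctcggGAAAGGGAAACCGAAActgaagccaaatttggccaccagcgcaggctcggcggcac
IFITM3: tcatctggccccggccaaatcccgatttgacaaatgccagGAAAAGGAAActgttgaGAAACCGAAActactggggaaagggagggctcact
Each stretch holds 2 matches, which overlap in ISG15 and lie apart in RTP4 and IFITM3, from 8 to 113 bases before the gene start. Both strands were searched in windows from 250 bases before to 50 after the start of 7100 matched genes, and 266 of them (3.75%) held the core. It was found in 10 of 19 interferon-stimulated genes with a window (52.6%), and in 6.67% of the class higher in A375 and lower in Yumm1.7 and 1.72% of the reverse class. A match is a description of the letters and no sign that a factor bound there, and mouse promoters were not examined.

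Genes of antigen presentation by MHC class I, which interferons also raise, were less uniform. Of 12 matched, B2M, ERAP1 and TAPBP were higher in A375 only, CALR and PSME2 were higher in Yumm1.7 only, and NLRC5, PDIA3 and PSME1 were lower in Yumm1.7 only. ERAP1, which trims peptides in the ER, was at 15.5 TPM in P and 35.4 in S in A375, and 9.28 in P and 4.56 in S in Yumm1.7. PSME1 and PSME2, the 2 chains of the interferon-inducible proteasome activator, were split in Yumm1.7, at 186 TPM in P and 45.0 in S for PSME1 and 241 TPM in P and 266 in S for PSME2. The list's median difference was 0.39, 0.39 and 0.44 in the 3 fractions.

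The respiratory chain was line-specific mostly in 1 direction relative to the median gene. Its subunits sit in the inner mitochondrial membrane and pass electrons to oxygen. Of 55 nuclear-encoded subunits matched, 22 were higher in Yumm1.7 only, 1 (UQCRC2) was lower in Yumm1.7 only, none was called in A375 only or in opposite directions, 4 were higher in both lines and 28 were within 2-fold in both. In all, 41.8% of the list was line-specific, near the 42.8% of all matched genes. Of all matched genes, 14.5% were higher and 13.9% lower in Yumm1.7 only. The list had a median of 0.38 in A375 and of 0.92 in Yumm1.7. Its median difference was -0.68, -0.91 and -1.10 in input, monosome and polysome libraries. NDUFV3 was at 10.9 TPM in P and 11.0 in S in A375, and 228 in P and 1821 in S in Yumm1.7. NDUFS6 was at 333 TPM in P and 315 in S in A375, and 299 in P and 911 in S in Yumm1.7, and NDUFS5 was at 736 TPM in P and 798 in S in A375, and 298 in P and 792 in S in Yumm1.7. NDUFA3 was at 33.9 TPM in P and 42.4 in S in A375, and 279.6 in P and 788 in S in Yumm1.7. As deposited, however, the list's medians were 0.18 and -0.02, and 10 subunits were 2-fold higher in Yumm1.7 and 11 lower, so the shared direction holds relative to the median gene and not in TPM.

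The mRNAs of the mitochondrial genome, translated inside mitochondria, followed the same order. Of 12 matched, MT-ATP6, MT-CO1, MT-CO2, MT-CO3, MT-ND3 and MT-ND4 were higher in Yumm1.7 only. MT-ND3 was at 2485 TPM in P and 3649.9 in S in A375, and 1409.8 in P and 7519.6 in S in Yumm1.7, and MT-ATP6 was at 11610.3 TPM in P and 13208 in S in A375, and 13303 in P and 35769.5 in S in Yumm1.7. The median difference was -1.47 in input, -2.40 in monosome and -2.50 in polysome libraries. In polysome libraries both lines were higher in S, with medians of 1.65 in A375 and 5.01 in Yumm1.7, whereas in monosome libraries the medians were -1.99 and -0.05. These mRNAs are not carried by cytosolic ribosomes, so their place in the gradient does not measure cytosolic translation. Genes of 2 mitochondrial tRNAs, MT-TS2 and MT-TL2, were lower in A375 only in input and higher in A375 only in both gradient fractions. MT-TS2 was at 526 and 33.9 TPM in A375 P and S input and at 40.7 and 237 in the monosome libraries. The A375 minus Yumm1.7 difference was -3.37 in input, 3.23 in monosome and 1.14 in polysome libraries for MT-TS2 and -2.82 in input, 2.66 in monosome and 1.06 in polysome libraries for MT-TL2.

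The citric acid cycle, which feeds the chain, had another pattern. Of 25 matched genes, CS, DLAT, DLD, IDH3A, MDH1, ME2, PDHB, SDHD and SUCLG2 were lower in Yumm1.7 only, IDH3G was higher in A375 only, 2 were lower in both and 13 were within 2-fold in both. DLD, a subunit shared by the mitochondrial dehydrogenase complexes, was at 62.2 TPM in P and 38.6 in S in A375, and 47.9 in P and 4.16 in S in Yumm1.7. ME2, a mitochondrial malic enzyme, was at 21.9 TPM in P and 22.8 in S in A375, and 26.2 in P and 1.94 in S in Yumm1.7, and SUCLG2 was at 44.8 TPM in P and 62.1 in S in A375, and 34.1 in P and 4.96 in S in Yumm1.7. The list's median difference was 0.29 in input, 0.29 in monosome and 0.16 in polysome libraries. In Yumm1.7 the cycle genes thus had a median of -0.61 where the respiratory subunits had 0.92. Of 29 mitochondrial ribosomal protein genes matched, 6 were higher and 4 lower in Yumm1.7 only, and 37.9% were line-specific against 42.8% of all, with MRPS12 at 84.4 TPM in P and 160.4 in S and MRPS18B at 104 TPM in P and 7.01 in S in Yumm1.7.

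**Figure D4:**
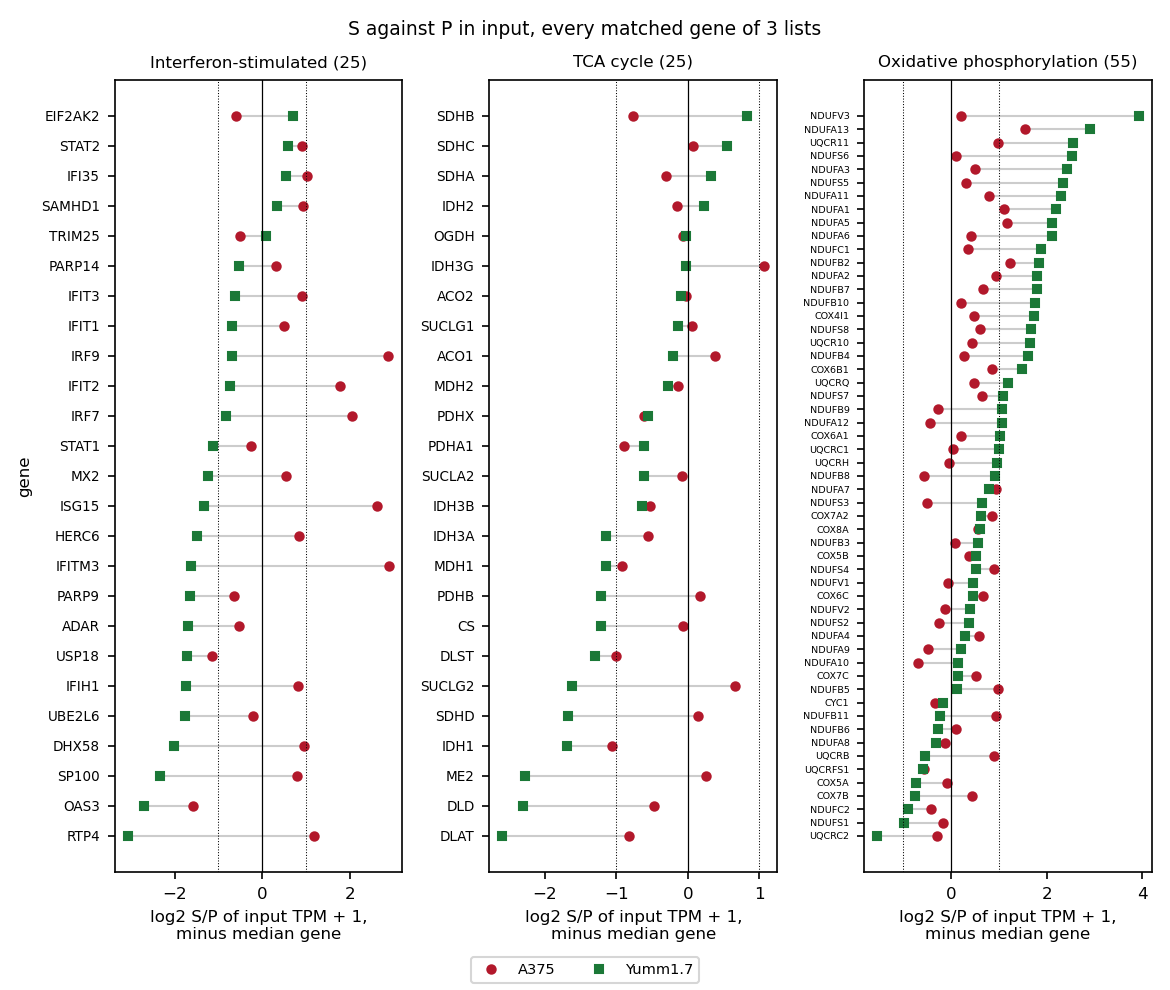
Every matched gene of 3 lists is plotted with its log2 ratio of S to P input TPM + 1, minus the median gene, in A375 (red circles) and Yumm1.7 (green squares), sorted by the Yumm1.7 value, with dotted lines at 2-fold. Circles lie to the right of squares for 23 of 25 interferon-stimulated genes and for 18 of 25 citric acid cycle genes, and for 17 of 55 respiratory subunits.

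Lysosomes and autophagy degrade and recycle cell material, and both are raised by TFEB-family factors when growth signals fall. Of 54 lysosome genes matched, 20 were higher in both lines, 9 were higher in A375 only and 7 in Yumm1.7 only. Over all matched genes these classes held 6.56%, 6.04% and 14.5%, so the Yumm1.7-only count is near the background. The lysosome list was 33.3% line-specific, below the 42.8% of all matched genes. The list's median was 1.19 in A375 and 1.02 in Yumm1.7 (0.99 and 0.09 as deposited), so the lines shared the direction relative to the median gene but not all of the members. TPP1, a lysosomal peptidase, was at 20.6 TPM in P and 104 in S in A375, and 75.4 in P and 24.0 in S in Yumm1.7, and as deposited it was past 2-fold in opposite directions. Of 39 V-ATPase and autophagy genes, ATP6AP2, GABARAPL2, NBR1 and WIPI1 were higher in A375 and lower in Yumm1.7. ATG9A was in the reverse class, and ATG3 was lower in A375 only. ATP6AP2, an accessory subunit of the proton pump, was at 124 TPM in P and 430.2 in S in A375, and 124 in P and 28.0 in S in Yumm1.7. NBR1, a selective autophagy receptor, was at 55.3 TPM in P and 115 in S in A375, and 42.2 in P and 9.14 in S in Yumm1.7 and was opposite past 2-fold in all 3 fractions. WIPI1, which binds the lipid of forming autophagosomes, was at 16.3 TPM in P and 56.0 in S in A375, and 20.4 in P and 1.84 in S in Yumm1.7. On the other side, 8 genes of the list were higher in Yumm1.7 only, 6 of them V-ATPase subunits (ATP6V0A1, ATP6V0B, ATP6V0C, ATP6V0D1, ATP6V1E1 and ATP6V1F). Over all matched genes, 14.5% were higher in Yumm1.7 only. The list as a whole was 43.6% line-specific, near the 42.8% of all matched genes, and had a median difference of 0.10.

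Factors of the AP-1 family and other immediate early genes respond to stress and growth signals. Of 19 matched, ATF3, JUN, JUND, KLF9 and ZFP36 were higher in A375 only, EGR3 and IER3 were lower in A375 only, and IER5 and KLF6 were lower in Yumm1.7 only. JUN, the core AP-1 subunit, was at 4.00 TPM in P and 121 in S in A375, and 22.0 in P and 5.87 in S in Yumm1.7. In polysome libraries JUN was at 7.40 and 254 TPM in A375, and at 28.6 and 9.09 in Yumm1.7. ATF3, a stress-induced partner of JUN, was at 7.76 TPM in P and 128 in S in A375, and 7.09 in P and 7.14 in S in Yumm1.7. IER3 was at 15.1 TPM in P and 2.96 in S in A375, and 122 in P and 61.7 in S in Yumm1.7, with an A375 value of -1.83. The JUN difference between the lines was 5.62 in input, 5.52 in monosome and 5.15 in polysome libraries, whereas over the whole list the median difference was 0.78, 0.996 and 0.10. As deposited, JUN was past 2-fold in opposite directions.

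Feedback genes of the MAPK pathway, which report its output, were mostly lower in both lines (13 of 22 matched). Among the line-specific ones, DUSP5, EPHA2, PHLDA1 and SPRED1 were lower in Yumm1.7 only, IER3 and TGFA in A375 only, HBEGF was higher in A375 only, and SPRED3 was higher in A375 and lower in Yumm1.7. SPRED1, an inhibitor of RAS signalling, was at 28.6 TPM in P and 22.9 in S in A375, and 28.1 in P and 1.15 in S in Yumm1.7, and DUSP5, a nuclear ERK phosphatase, was at 16.1 TPM in P and 8.98 in S in A375, and 34.1 in P and 5.27 in S in Yumm1.7. DUSP5 was only 0.97 apart between the lines, under 2-fold, although it was called in Yumm1.7 only. Among receptor kinases, MET, the receptor of hepatocyte growth factor, was higher in A375 and lower in Yumm1.7, at 15.3 TPM in P and 31.4 in S in A375, and 11.8 in P and 1.61 in S in Yumm1.7. VEGFA was at 23.1 TPM in P and 39.7 in S in A375, and 16.3 in P and 2.11 in S in Yumm1.7 and was called lower in Yumm1.7 only.

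Genes linked to quiescence and growth arrest were found in several classes. TXNIP, an inhibitor of glucose uptake, was at 63.5 TPM in P and 375.5 in S in A375, and 9.46 in P and 5.02 in S in Yumm1.7, and BTG1, an antiproliferative factor, was at 44.1 TPM in P and 195 in S in A375, and 42.1 in P and 12.2 in S in Yumm1.7. KLF9 was at 52.8 TPM in P and 187 in S in A375, and 6.30 in P and 3.88 in S in Yumm1.7. TXNIP and KLF9 were higher in A375 only in every fraction, and ARRDC3, ARRDC4 and FOXO3 were in the class in input. CDKN2C, FOXO1, FOXO4, MNT, MXD1 and PINK1 were higher in Yumm1.7 only instead, with PINK1, a mitophagy kinase, at 13.2 TPM in P and 17.6 in S in A375, and 17.1 in P and 91.6 in S in Yumm1.7. Of 38 genes in the list, 6 were in each of 3 classes (higher in A375 only, higher in Yumm1.7 only and lower in Yumm1.7 only), and 4 were higher in both lines. Over all matched genes these 3 classes held 6.04%, 14.5% and 13.9%, so both Yumm1.7 counts are near the background. Among p53 targets MDM2, the p53 ligase, was at 31.8 TPM in P and 19.7 in S in A375, and 103 in P and 11.2 in S in Yumm1.7, and it was lower in Yumm1.7 only in all 3 fractions.

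Cell division itself was not line-specific. Of 50 mitosis genes matched, 48 were lower in both lines, and the other 2, PTTG1 and UBE2S, were lower in A375 only. PTTG1, the securin that holds back sister separation, was at 618 TPM in P and 29.3 in S in A375, and 47.9 in P and 43.5 in S in Yumm1.7. UBE2S, a conjugating enzyme of the anaphase-promoting complex, was at 402 TPM in P and 57.0 in S in A375, and 541 in P and 196 in S in Yumm1.7 and was lower in Yumm1.7 too as deposited. Of 44 genes of DNA replication, 36 were lower in both. E2F1, which drives the start of DNA replication, was at 27.6 TPM in P and 1.89 in S in A375, and 32.3 in P and 31.1 in S in Yumm1.7, so its Yumm1.7 TPM was nearly level while that of A375 was low in S. RPA1 and RPA2, subunits of the single-strand binding complex, were lower in Yumm1.7 only, at 15.9 TPM in P and 0.922 in S for RPA1 and 46.4 TPM in P and 2.49 in S for RPA2 in that line. As deposited, both were lower in both lines.

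Extracellular matrix genes held both shared and line-specific members. Of 11 collagens matched, 6 were higher in both lines, COL7A1 and COL18A1 were higher in A375 only, and COL4A1 and COL4A2 were lower in A375 and higher in Yumm1.7. COL4A1 and COL4A2, neighbouring genes that share a promoter region and encode the 2 main chains of basement membrane collagen IV, differed alike. COL4A1 was at 53.7 TPM in P and 8.67 in S in A375, and 33.0 in P and 40.05 in S in Yumm1.7. COL4A2 was at 83.3 TPM in P and 14.8 in S in A375, and 12.1 in P and 23.9 in S in Yumm1.7. Their differences were -3.51 in input, -4.02 in monosome and -4.29 in polysome libraries for COL4A1 and -4.07 in input, -3.62 in monosome and -4.18 in polysome libraries for COL4A2. Both were past 2-fold in opposite directions in every fraction, although as deposited both were called lower in A375 only. NID1, which links collagen IV to laminin, was higher in A375 only, at 16.9 TPM in P and 95.2 in S in A375, and 58.3 in P and 16.1 in S in Yumm1.7, and COL18A1 was at 2.12 TPM in P and 25.4 in S in A375.

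FSTL1, a secreted glycoprotein of the follistatin family, was higher in Yumm1.7 only, at 8.46 TPM in P and 11.5 in S in A375, and 2.05 in P and 289 in S in Yumm1.7. In monosome libraries FSTL1 went from 2.27 to 378 TPM in Yumm1.7, and in polysome libraries from 3.11 to 83.0. ADAMTS1, a matrix protease, was at 9.24 TPM in P and 4.90 in S in A375, and 2.31 in P and 30.0 in S in Yumm1.7. MATN2, a matrix adaptor, had the reverse order and was at 0.113 TPM in P and 15.4 in S in A375, and 10.8 in P and 3.79 in S in Yumm1.7. TIMP1, an inhibitor of metalloproteinases, was at 286 TPM in P and 419.7 in S in A375, and 286 in P and 22.1 in S in Yumm1.7 and was called lower in Yumm1.7 only. Among integrins ITGAV and ITGA6 were higher in A375 only, with ITGAV at 44.9 TPM in P and 164 in S in A375, and 50.5 in P and 16.1 in S in Yumm1.7, while ITGA3 was higher in Yumm1.7 only, at 17.8 TPM in P and 20.9 in S in A375, and 26.9 in P and 49.1 in S in Yumm1.7. PLAUR, the urokinase receptor, was at 28.1 TPM in P and 40.9 in S in A375, and 85.8 in P and 1.03 in S in Yumm1.7, and PLAUR was lower in Yumm1.7 in each fraction.

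Genes of smooth muscle and the actin cytoskeleton are targets of serum response factor and its MRTF partners. Of 32 matched, 10 were higher in Yumm1.7 only (ACTA2, ACTB, ACTN4, CSRP1, FLNA, MRTFB, TMSB10, TPM2, VCL and ZYX), 7 were higher in both, and 3 were higher in A375 only. Of the 10, VCL (vinculin) was not in its class in the gradient fractions, where it was higher in A375 only. ACTA2, the smooth muscle actin, was at 2.06 TPM in P and 1.08 in S in A375, and 5.97 in P and 603 in S in Yumm1.7. TMSB10, an actin-sequestering peptide, was at 4447 TPM in P and 3790.2 in S in A375, and 4053 in P and 18388 in S in Yumm1.7, and TPM2, a tropomyosin of muscle, was at 249.8 TPM in P and 172 in S in A375, and 335 in P and 849 in S in Yumm1.7. CFL1, PFN1 and TES were lower in Yumm1.7 only, with PFN1, profilin, at 2795 TPM in P and 2632 in S in A375, and 2546 in P and 374.6 in S in Yumm1.7. ACTN1 was lower in A375 only, at 100.2 TPM in P and 30.9 in S in A375, and 89.0 in P and 88.1 in S in Yumm1.7. Beside these values stand the smooth muscle markers of Yumm1.7, where Acta2, Tagln, Actg2 and Lmod1 were above 1 TPM in S, while Myh11 was listed at 0 and Des and Cnn1 stayed under 1 TPM; their part in the result was not tested. Reads of ACTB and ACTG1, whose sequences are nearly the same, could be exchanged between them. The letters of the CArG box, the binding site of serum response factor, were in 9 of 29 promoter windows of the list (31.0%) and in 1.58% of all windows.

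The list of serum response factor, YAP, their partners and genes that either one targets held members of 5 line-specific classes. AJUBA, AMOTL2, ARHGEF17, CCN1, CCN2 and VCL were higher in Yumm1.7 only, whereas FHL2 was higher in A375 and lower in Yumm1.7. CCN1, a matricellular protein, was at 29.2 TPM in P and 24.7 in S in A375, and 16.1 in P and 30.8 in S in Yumm1.7, and FHL2, a LIM-domain cofactor, was at 23.6 TPM in P and 47.97 in S in A375, and 25.8 in P and 2.45 in S in Yumm1.7. FHL2 was opposite past 2-fold in every fraction, at 1.88 in A375 and -3.07 in Yumm1.7 in monosomes and 1.49 in A375 and -2.27 in Yumm1.7 in polysomes, and as deposited its input values were called lower in Yumm1.7 only. ANKRD1 was lower in A375 and higher in Yumm1.7, at 3.13 TPM in P and 0.0447 in S in A375, and 24.6 in P and 58.7 in S in Yumm1.7. AXL, EGR3 and IER3 were lower in A375 only, and MYOF and WWTR1 were lower in Yumm1.7 only. The list of 25 had 13 line-specific genes (52.0%) and a median difference of -0.70, -0.37 and -0.68.

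Antioxidant genes, many of them targets of the factor NRF2, were spread over all 6 classes. Of 36 matched, 20 were line-specific (55.6%). NFE2L2, which encodes NRF2, was at 114 TPM in P and 126 in S in A375, and 59.7 in P and 1.696 in S in Yumm1.7. GSR, glutathione reductase, was at 61.1 TPM in P and 73.9 in S in A375, and 45.8 in P and 1.40 in S in Yumm1.7. Both were lower in Yumm1.7 only, with ACSL4, GCLC, NQO1, PRDX1, PRDX3 and TALDO1. AIFM2, GPX4, GSTM1, MGST3, PRDX2, PRDX5 and SOD1 were higher in Yumm1.7 only, with AIFM2, an oxidoreductase that protects against lipid peroxidation, at 33.1 TPM in P and 19.6 in S in A375, and 22.9 in P and 43.7 in S in Yumm1.7. CAT, catalase, was higher in A375 and lower in Yumm1.7, at 35.3 TPM in P and 77.1 in S in A375, and 53.7 in P and 8.91 in S in Yumm1.7, whereas SOD3 had the reverse pattern. The median of the list was -0.02 in A375 and -0.49 in Yumm1.7, and as deposited it was -0.22 and -1.43, with 22 genes 2-fold lower in Yumm1.7 and 3 higher. The letters of the antioxidant response element core, TGACNNNGC, were in 8 of 27 promoter windows of the list (29.6%) and in 20.3% of all windows, on either strand.

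Some genes of ER chaperones and the unfolded protein response stood higher in A375 in input, though 24 of 40 matched were within 2-fold in both lines. The list was 35.0% line-specific, below the 42.8% of all matched genes, with a median difference of 0.29. In input, 14 genes had an A375 minus Yumm1.7 difference of 2-fold or more and none the reverse, although in monosome libraries 9 and 6 did. Over all matched genes the shares were 20.5% and 21.3% in input, and 25% and 26.1% in monosome libraries. CRELD2, a secreted ER stress factor, was at 90.7 TPM in P and 196 in S in A375, and 64.6 in P and 9.74 in S in Yumm1.7. DNAJB9, an ER co-chaperone, was at 9.05 TPM in P and 29.3 in S in A375, and 19.96 in P and 6.16 in S in Yumm1.7, and PDIA6, a disulfide isomerase, was at 621 TPM in P and 458 in S in A375, and 145 in P and 15.6 in S in Yumm1.7. HERPUD1 was lower in Yumm1.7 only, at 43.6 TPM in P and 48.4 in S in A375, and 44.7 in P and 5.10 in S in Yumm1.7. DDIT3, the CHOP factor of the integrated stress response, went the other way and was higher in Yumm1.7 only, at 75.02 TPM in P and 55.0 in S in A375, and 212 in P and 701 in S in Yumm1.7. Of the enzymes of amino acid synthesis, PHGDH was lower in A375 only at 143 TPM in P and 20.6 in S in A375, and 282 in P and 79.8 in S in Yumm1.7, and SHMT1 was at 49.97 TPM in P and 28.0 in S in A375 and went from 31.9 TPM to a listed 0 in Yumm1.7.

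Of 21 glycolysis genes, 12 (57.1%) were line-specific, beside 42.8% of all matched genes. LDHA, which makes lactate, was at 2469.6 TPM in P and 449.9 in S in A375, and 1690.3 in P and 829 in S in Yumm1.7, and was called lower in A375 only in every fraction. LDHB, which runs the reverse reaction, was at 2539 TPM in P and 1073 in S in A375, and 6.65 in P and 24.9 in S in Yumm1.7, lower in A375 and higher in Yumm1.7. GAPDH was higher in Yumm1.7 only, at 10355 TPM in P and 7607 in S in A375, and 313 in P and 578 in S in Yumm1.7, and it was not past 2-fold there as deposited. Reads of GAPDH, LDHA and LDHB can also come from their many processed pseudogenes. ENO1, LDHA and PFKP were lower in A375 only, HK1 and PGK1 were lower in Yumm1.7 only, and PFKL, PFKM, ENO2 and ALDOA were higher in Yumm1.7 only. HIF1A was lower in Yumm1.7 only, at 118 TPM in P and 78.3 in S in A375, and 20.1 in P and 2.79 in S in Yumm1.7, and NDRG1, a hypoxia target, was lower in A375 and higher in Yumm1.7, at 33.0 TPM in P and 11.7 in S in A375, and 14.0 in P and 20.4 in S in Yumm1.7.

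Lipid synthesis and oxidation also separated the lines. Of 33 genes of cholesterol and fatty acid synthesis, 5 were lower in A375 only, and 8 were lower and 7 higher in Yumm1.7 only. Over all matched genes these classes held 6.38%, 13.9% and 14.5%. The list was 60.6% line-specific, beside 42.8% of all matched genes. None of its genes was in opposite directions, where 1.95% of all matched genes were. FASN, fatty acid synthase, was at 90.3 TPM in P and 20.01 in S in A375, and 29.9 in P and 31.0 in S in Yumm1.7, and ACACA, which makes its substrate, was at 23.3 TPM in P and 7.21 in S in A375, and 6.83 in P and 6.13 in S in Yumm1.7. Both were nearly level in Yumm1.7 TPM, and in monosome libraries both were called higher in Yumm1.7 only. EBP, a sterol isomerase, was at 63.5 TPM in P and 33.5 in S in A375, and 47.6 in P and 73.0 in S in Yumm1.7, and DHCR7, the last enzyme of cholesterol synthesis, was at 19.7 TPM in P and 7.599 in S in A375, and 26.2 in P and 21.3 in S in Yumm1.7. Of 37 genes of fatty acid oxidation and peroxisomes, 13 were higher in Yumm1.7 only and 5 in A375 only. Of all matched genes, 14.5% and 6.04% were. The oxidation list was 59.5% line-specific, beside the same 42.8%. ETFA, which passes electrons from fatty acid oxidation to the chain, was lower in Yumm1.7 only, at 132 TPM in P and 73.1 in S in A375, and 64.1 in P and 4.22 in S in Yumm1.7.

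Genes of protein synthesis differed by class of factor. Elongation factors and other mRNAs with a terminal oligopyrimidine tract, through which mTOR controls their translation, stood higher in A375 in input: of 24 matched, 8 were lower in Yumm1.7 only. TPT1 was higher in A375 and lower in Yumm1.7, at 849 TPM in P and 1657 in S in A375, and 10019 in P and 2152 in S in Yumm1.7, but in polysome libraries both lines were above the median gene, at 1.15 in A375 and 0.64 in Yumm1.7. EIF3E was at 439 TPM in P and 697 in S in A375, and 342 in P and 63.4 in S in Yumm1.7, and PABPC4 was lower in A375 only, at 206 TPM in P and 56.6 in S in A375, and 87.1 in P and 67.5 in S in Yumm1.7. The list's median difference was 0.78 in input, 1.25 in monosome and -0.34 in polysome libraries, so its order was not kept in polysomes. Cytosolic ribosomal protein genes are not analysed here. Of 34 initiation factors, 6 were lower in A375 only and 6 in Yumm1.7 only, with EIF2S1, the subunit phosphorylated in the stress response, at 106 TPM in P and 46.7 in S in A375, and 148 in P and 9.87 in S in Yumm1.7. Over all matched genes these 2 classes held 6.38% and 13.9%. The initiation factors were 38.2% line-specific, below the 42.8% of all matched genes.

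Ribosome biogenesis factors were mostly lower in both lines (27 of 76 matched) or in 1 of them (19 in A375 only and 13 in Yumm1.7 only). Over all matched genes these 3 classes held 7.89%, 6.38% and 13.9%, so the Yumm1.7-only count is near the background. The list was 46.1% line-specific, near the 42.8% of all matched genes. NOP56, a core protein of box C/D small nucleolar particles, was at 477 TPM in P and 82.0 in S in A375, and 486 in P and 210.4 in S in Yumm1.7. Its A375 value was -4.25 in monosome libraries, where it went from 977 to 52.0 TPM. BYSL and RRP7A, factors of the small subunit, were called lower in A375 and higher in Yumm1.7, with BYSL at 56.6 TPM in P and 20.1 in S in A375, and 27.7 in P and 61.2 in S in Yumm1.7. Neither BYSL nor RRP7A kept that class in the other fractions. The medians of the list were -1.22 in A375 and -1.10 in Yumm1.7 (-1.42 and -2.04 as deposited), and as deposited NOP56 was lower in both lines. Heat shock proteins were lower in A375 only for 11 of 35 matched genes, a class that held 6.38% of all matched genes. Among the 11 were 4 subunits of the chaperonin CCT (CCT3, CCT4, CCT5 and CCT7). The heat shock list was drawn up as cytosolic, but it also holds the mitochondrial chaperones HSPA9, HSPD1 and HSPE1. HSPE1 is counted among the 11. HSPA8, the constitutive HSP70, was at 1469.8 TPM in P and 572 in S in A375, and 2000.4 in P and 1552 in S in Yumm1.7, and CCT7 was at 779.7 TPM in P and 264 in S in A375, and 353 in P and 306 in S in Yumm1.7. In monosome libraries the median difference of that list was 0.24, against -0.33 in input, and HSPA8 in A375 was within 2-fold of the median gene there, at 0.35.

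Genes of cell identity and signalling pathways were divided as well. Of 13 neural crest and melanocyte genes matched, TFAP2B, a neural crest factor, was lower in A375 and higher in Yumm1.7, at 15.2 TPM in P and 4.33 in S in A375, and 7.30 in P and 22.8 in S in Yumm1.7. SOX9, a factor of glia and of dedifferentiated melanoma, was at 158 TPM in P and 238 in S in A375, and 13.8 in P and 34.1 in S in Yumm1.7, and NES, nestin, was at 197 TPM in P and 149 in S in A375, and 25.3 in P and 59.1 in S in Yumm1.7. GPNMB, a melanosomal glycoprotein, was higher in A375 only, at 205 TPM in P and 536 in S in A375, and 249 in P and 181 in S in Yumm1.7. Of 13 genes of epithelial-mesenchymal transition and cadherins, CDH2, PCDHGC3, SNAI2 and ZEB2 were higher in A375 only, PCDH1, PCDH7, TWIST1 and ZEB1 were higher in Yumm1.7 only, CTNND1 and TJP1 were lower in Yumm1.7 only, and 3 were within 2-fold in both. TWIST1 was at 17.3 TPM in P and 7.52 in S in A375, and 58.7 in P and 103 in S in Yumm1.7, and ZEB1 was at 8.17 TPM in P and 4.00 in S in A375, and 6.74 in P and 11.0 in S in Yumm1.7. ZEB2 was at 14.5 TPM in P and 41.0 in S in A375, and 4.21 in P and 2.67 in S in Yumm1.7. SNAI2 was at 18.0 TPM in P and 96.3 in S in A375 and went from 1.58 TPM to a listed 0 in Yumm1.7. SNAI2, ZEB2 and ANKRD1 are named here after their values were seen, to complete their lists. As deposited, TWIST1 was called lower in A375 only and ZEB1 in neither line. ZEB1 lay near its Yumm1.7 median gene in polysome libraries, at -0.07.

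The Wnt and Hedgehog lists were line-specific at shares of 46.2% and 39.0%, near the 42.8% of all matched genes. Of 13 genes in the Wnt list, FZD2, LRP6, PORCN and TCF7L2 were higher in Yumm1.7 only, and FZD7 was lower in A375 only. TCF4, also counted in the list as higher in Yumm1.7 only, is a basic helix-loop-helix factor and not the Wnt effector TCF7L2. FZD2, a Wnt receptor, was at 5.26 TPM in P and 9.65 in S in A375, and 2.02 in P and 23.9 in S in Yumm1.7, and PORCN, the enzyme that acylates Wnt proteins for secretion, was at 8.21 TPM in P and 8.78 in S in A375, and 0.824 in P and 10.01 in S in Yumm1.7. Both were in the class in every fraction. FZD7 was at 33.1 TPM in P and 5.79 in S in A375, and 7.78 in P and 5.16 in S in Yumm1.7. Of 41 genes of the primary cilium and Hedgehog signalling, 11 were higher in Yumm1.7 only (14.5% of all matched genes were), with IFT172, a transport protein of the cilium, at 6.20 TPM in P and 5.71 in S in A375, and 2.49 in P and 12.4 in S in Yumm1.7. Of the TGF-beta and BMP genes, LTBP3, which holds latent TGF-beta in the matrix, was higher in A375 only at 26.0 TPM in P and 143 in S in A375, and 40.4 in P and 24.6 in S in Yumm1.7, and SMAD4, the common mediator, was lower in Yumm1.7 only at 13.7 TPM in P and 17.9 in S in A375, and 11.3 in P and 1.11 in S in Yumm1.7. Among guidance molecules, EFNA5, an ephrin, was lower in A375 and higher in Yumm1.7, at 10.3 TPM in P and 1.79 in S in A375, and 5.80 in P and 9.19 in S in Yumm1.7, and PLXNB2, a semaphorin receptor, was higher in Yumm1.7 only, at 16.3 TPM in P and 26.7 in S in A375, and 178 in P and 841 in S in Yumm1.7.

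Proteasome, splicing and chromatin genes gave smaller contrasts. Of 34 proteasome subunits, 7 were lower in Yumm1.7 only, 3 were higher there and 3 were lower in A375 only. Over all matched genes these classes held 13.9%, 14.5% and 6.38%. The list was 38.2% line-specific, below the 42.8% of all matched genes. PSMA2 was at 262 TPM in P and 126 in S in A375, and 66.0 in P and 4.48 in S in Yumm1.7, whereas PSMD1 was at 139.6 TPM in P and 69.5 in S in A375, and 96.8 in P and 163 in S in Yumm1.7. Of 59 splicing proteins, 14 were lower in Yumm1.7 only and 7 in A375 only, beside 23 lower in both. The splicing list was 37.3% line-specific, also below the 42.8% of all matched genes. CLK4, a kinase of splicing factors, was at 10.1 TPM in P and 10.6 in S in A375, and 16.7 in P and 0.604 in S in Yumm1.7. SRSF4 went from 45.0 TPM to a listed 0 in Yumm1.7 S input, but it was higher in S in the Yumm1.7 monosome libraries, from 15.1 to 23.5 TPM. Of 62 chromatin modifiers, 10 were higher and 6 lower in Yumm1.7 only, and 30.6% were line-specific against 42.8% of all, with HDAC1 at 173 TPM in P and 204 in S in A375, and 52.1 in P and 7.70 in S in Yumm1.7.

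Smaller lists gave single line-specific genes. DPYSL3, a protein of neurite growth, was lower in A375 and higher in Yumm1.7 in every fraction, at 31.7 TPM in P and 7.41 in S in A375, and 30.8 in P and 52.7 in S in Yumm1.7, and as deposited it was called lower in A375 only. TUBB2A, a beta-tubulin of neurons, was higher in Yumm1.7 only, at 74.6 TPM in P and 59.6 in S in A375, and 38.0 in P and 93.4 in S in Yumm1.7. HES6, a helix-loop-helix factor of the HES family, was at 33.3 TPM in P and 18.8 in S in A375, and 10.03 in P and 50.05 in S in Yumm1.7, and RBPJ, the DNA-binding partner of Notch, was at 44.5 TPM in P and 41.5 in S in A375, and 21.7 in P and 1.23 in S in Yumm1.7. Both differed through Yumm1.7, in opposite directions. Among apoptosis genes XIAP, a caspase inhibitor, was at 5.95 TPM in P and 10.6 in S in A375, and 7.05 in P and 0.549 in S in Yumm1.7, and 7 of the 32 BCL2 family and caspase genes were lower in Yumm1.7 only. NR3C1, the glucocorticoid receptor, was called higher in A375 only, at 10.7 TPM in P and 22.1 in S in A375, and 12.7 in P and 2.70 in S in Yumm1.7, and as deposited it was called lower in Yumm1.7 only. TFPI, an inhibitor of coagulation, was at 2.78 TPM in P and 14.9 in S in A375, and 23.2 in P and 6.45 in S in Yumm1.7, and PLK2, a p53 target, was at 44.6 TPM in P and 183 in S in A375, and 11.4 in P and 4.62 in S in Yumm1.7. TFPI and PLK2 were higher in A375 only in every fraction. NFIL3, a repressor of the circadian clock, was in that class in every fraction as well, with differences of 2.09 in input, 1.45 in monosome and 3.01 in polysome libraries.

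**Figure D5:**
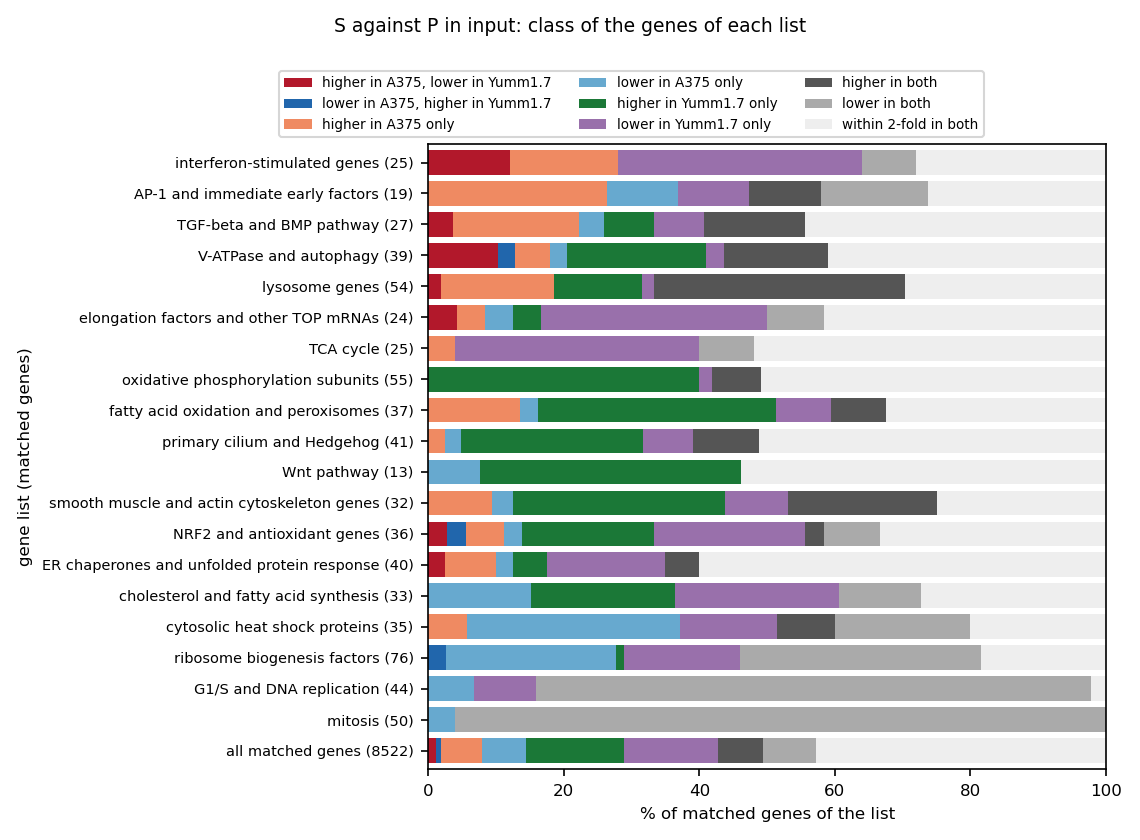
For each gene list, bars give the percentage of its matched genes (number in brackets) in each of the 6 classes, higher or lower in both lines, or within 2-fold in both, with all matched genes at the bottom. Line-specific classes make up 64.0% of the interferon-stimulated genes and 4.0% of the mitosis genes, beside 42.8% of all matched genes.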

How the data were processed

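The authors deposited 1 table of TPM values per line, and expression was used as TPM throughout. mRNA was purified on poly-T beads, per the labels' protocols, and the builds named per the submitters' processing notes are GRCh38 (hg38) and GRCm38 (mm10). The aligner, quantifier and gene annotation were not given in the sources used here. Listed genes of a library summed to 66.6% to 94.4% of 1000000 TPM, and depth is unknown. Genes were matched by symbol in capital letters, with no orthology table. Values were log2(TPM + 1), S minus P, minus the median over genes of a mean of at least 1 TPM in that table. Classes used a threshold of 1 on the log2 scale, as described in the report. With 1 library per group no test was run.

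The members and lists were chosen with earlier results of these data known. Genes named were the 10 per opposite class with the largest A375 minus Yumm1.7 difference (mean of at least 5 TPM in both tables), the 8 per 1-line class (mean of at least 10 TPM, other line within 0.5 of the median gene), and up to 4 class members per list (mean of at least 5 TPM). Other genes are named as list or marker members, by threshold, or after their values were seen, and a few genes that the rule names are not reported here. Of 230 genes named by rule and found in GENCODE 29, 91 share exon bases with another gene, so their reads may be split. Human positions, exon lengths and promoters came from GENCODE 29 and RefSeq (GRCh38.p14), and 8456 of 8522 symbols matched RefSeq. Other thresholds, TPM minimums, pseudocounts and scalings were tried. Python 3.11.15, pandas 2.3.3, numpy 2.4.6 and matplotlib 3.10.9 were used, and the code was tested on simulated data.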

Additional observations from a re-analysis of the deposited data

Results flagged for a closer look

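In 15 of the genes chosen by the naming rule the lines stood past 2-fold in opposite directions in all 3 fractions, with no input library at 0. The difference between the lines was not tested for any of them, because each state had 1 library. The values that follow are the input differences, A375 minus Yumm1.7, on the log2 scale.

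On the side higher in A375 S and lower in Yumm1.7 S were PCOLCE2, the procollagen processing enhancer, at 5.98, KRCC1 at 5.18 and RTP4, the interferon-stimulated chaperone, at 4.27. FHL2, the LIM-domain cofactor, followed at 3.21 and NBR1, the autophagy receptor, at 2.40.

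On the side lower in A375 S and higher in Yumm1.7 S were SOD3 at -8.23, GPC4 at -6.01, NBL1 at -5.73 and PTGFRN at -4.37. The basement membrane chains COL4A1 and COL4A2 stood at -3.51 and -4.07, and the ganglioside enzyme ST3GAL5 at -4.31. KCTD15 and TFAP2B, both genes of neural crest formation, stood at -4.27 and -3.86, and DPYSL3 at -3.45. As deposited, without centring, 5 of the 15 were not past 2-fold in both lines in input: FHL2 and RTP4 were then lower in Yumm1.7 only, and COL4A1, COL4A2 and DPYSL3 were lower in A375 only.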

How the results depend on the processing

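No paired analysis was possible because each line, state and fraction had 1 library. The class counts are given in one order: higher in A375 and lower in Yumm1.7, the reverse, higher in A375 only, lower in A375 only, higher in Yumm1.7 only and lower in Yumm1.7 only. With a 4-fold threshold they were 6, 6, 172, 188, 493 and 433. With a minimum mean of 10 TPM they were 43, 29, 240, 251, 684 and 714, and with a minimum of 5 TPM the A375-only counts were 333 and 351. A pseudocount of 0.1 gave 147 and 127 opposite genes, and one of 5 gave 50 and 27 and 743 genes higher in Yumm1.7 only. Without centring the counts were 195, 36, 425, 344, 387 and 2674. Asking also for a 2-fold difference between the lines left 332 genes lower in A375 only. In the monosome libraries, an alternative chosen after seeing the data like the polysome one, 125 genes were lower in A375 and higher in Yumm1.7. The other class counts were within 1.5 times of those reported, under every alternative run.

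The differences that reversed their sign did so in the gradient fractions: in monosome libraries GRB10 (0.18), MT-TL2 (2.66), MT-TS2 (3.23), RAVER1 (-1.13) and SRSF4 (-0.80), and in polysome libraries AARSD1 (-2.11), MT-TL2 (1.06), MT-TS2 (1.14) and SMARCA2 (1.37). The cause was not tested. Species, line, annotation and library cannot be told apart here, and symbol matching can pair genes that are not orthologs. Some of the 301 matched genes listed at 0 in the Yumm1.7 S input add to the classes lower in Yumm1.7. Of them, 13 were in the class higher in A375 and lower in Yumm1.7, and 77 were lower in Yumm1.7 only.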
